A study of Mus musculus with 12 samples.

Results

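Interleukins, chemokines and their receptors were followed in mouse granulosa cells before and 4 h after an ovulatory hormone. The members were all genes of the array's annotation whose symbol begins with Ccl, Ccr, Cxcl, Cxcr or Il followed by a digit, leaving out Il6st and Il11ra1, and there were 118 of them among 18194 genes measured. Where a gene had several probe sets, the brightest on average across the 12 arrays stood for it. By role they were 31 chemokine ligands, 15 chemokine receptors, 32 interleukin ligands, 35 interleukin receptor subunits and 5 others (Il1rn, Il18bp, Il1f5, Il4i1 and the antisense transcript Il1bos).

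Granulosa cells line the ovarian follicle, and the label of each of the 12 arrays names cells of 5 females, combined before hybridisation. The mice were wild-type littermates (WT) or carried Snf2l Ex6DEL, a germline loss of exon 6 of Snf2l made with a Gata-1 Cre expressed throughout the body and then kept without Cre on a 129SV background. Snf2l, now called Smarca1, codes for an ATPase that slides nucleosomes within ISWI complexes. PMSG (pregnant mare serum gonadotropin), which stimulates follicle growth, was injected in all mice at a dose of 5 IU when they were 24 to 26 days old. The groups of 0 h were collected 48 h later. The groups of 4 h received 5 IU of human chorionic gonadotropin (hCG) at that point, a stand-in for the surge of luteinizing hormone (LH) that triggers ovulation, and were collected 4 h after it. There were 3 arrays in each of the 4 groups. The treatment text gives 5 mice per group, and no label tells whether those 3 arrays hold different pools, so p-values measure the spread between arrays, which may be technical.

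Ovulation has long been likened to an inflammatory reaction. The LH surge makes granulosa and cumulus cells produce prostaglandins, matrix proteins and cytokines, and leukocytes gather around the follicle. Chemokines are small secreted proteins that guide cells through G protein-coupled receptors. Interleukins act through receptor chains that mostly work in pairs, so a cell responds to a ligand if it carries the right combination of chains. The study asked, as its title says, what Snf2l does in superovulation and in differentiating granulosa cells.

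Values are log2 intensities made with GCRMA, and the lowest value of the table, 2.21, is a floor at which a transcript cannot be told from background. The array medians lay between 2.75 and 2.91. The granulosa label was checked against 8 measured granulosa markers. Their mean lay between 11.3 and 13.6 on every array, and Amh was the marker at the floor on all 12. Smarca1 itself ran from 10.3 to 12.3 in WT arrays and from 10.6 to 12.2 in Ex6DEL arrays, and its probe set was not placed relative to exon 6, so it does not check the genotype. Ex6DEL 0 h replicate 3 stood apart from its group, with the LH-induced hyaluronan-binding gene Tnfaip6 at 12.57 against 5.53 and 3.23 in the other arrays of that group. For Cxcr4, Il1r1, Il7 and Cxcl1, results that rest on this array are given with and without it. In bulk samples, fewer cells of a type and less RNA per cell cannot be told apart.

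Most of these genes lay at or near background. Of the 118 members, 27 lay within 0.1 of the floor on all 12 arrays (22.9%, against 10.6% of all genes measured). Another 55 did not meet the rule for above background in any group, and 20 of these had at least 1 array over 3, the highest being 4.87 for Il6. The remaining 36 were above background, meaning that all 3 arrays of at least 1 group exceeded their array's median (30.5%, against 61.7% of all genes). Of these 36, 18 sat at a recurring value of their own, with at least 6 arrays within 0.1 of the member's median. Whether such a value is a transcript level or that probe set's background was not tested, and this division was made after the values were seen. The other 18 varied across arrays.

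Several named ligands were at the floor or close to it, while others described further on (Cxcl1, Il18, Il23a) were not. Ccl2, Ccl3, Ccl4, Ccl5 and Ccl20, ligands that draw monocytes, lymphocytes or dendritic cells, were at the floor on all 12 arrays. So were Il4, Il10, Il17a and Il34 (chosen for mention after their values were seen, as were Ccl3, Ccl4 and Ccl5). The monocyte attractant Ccl7, the IL-1 family ligand Il1a and Il15, a growth factor of natural killer cells, were at the floor on 11 of 12 arrays. Il33, an alarmin, was there on 9 arrays, and its highest values were 2.91 and 2.88 in WT 4 h replicates 1 and 3. Cxcl10, an interferon-induced ligand, had a highest value of 3.07, and Il11, a ligand that signals through gp130, of 3.61. Il1b, the secreted IL-1 ligand, recurred at 3.10 and reached no more than 3.81. Il1rn, the IL-1 receptor antagonist, recurred at 3.24 with a highest value of 4.42.

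By role, 13 of 15 chemokine receptors and 26 of 32 interleukin ligands lay at or near background, as did 19 of 31 chemokine ligands and 22 of 35 interleukin receptor subunits. Among members that varied above background, 9 were interleukin receptor subunits, 5 chemokine ligands, 3 interleukin ligands and 1 a chemokine receptor.

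**Figure D1:**
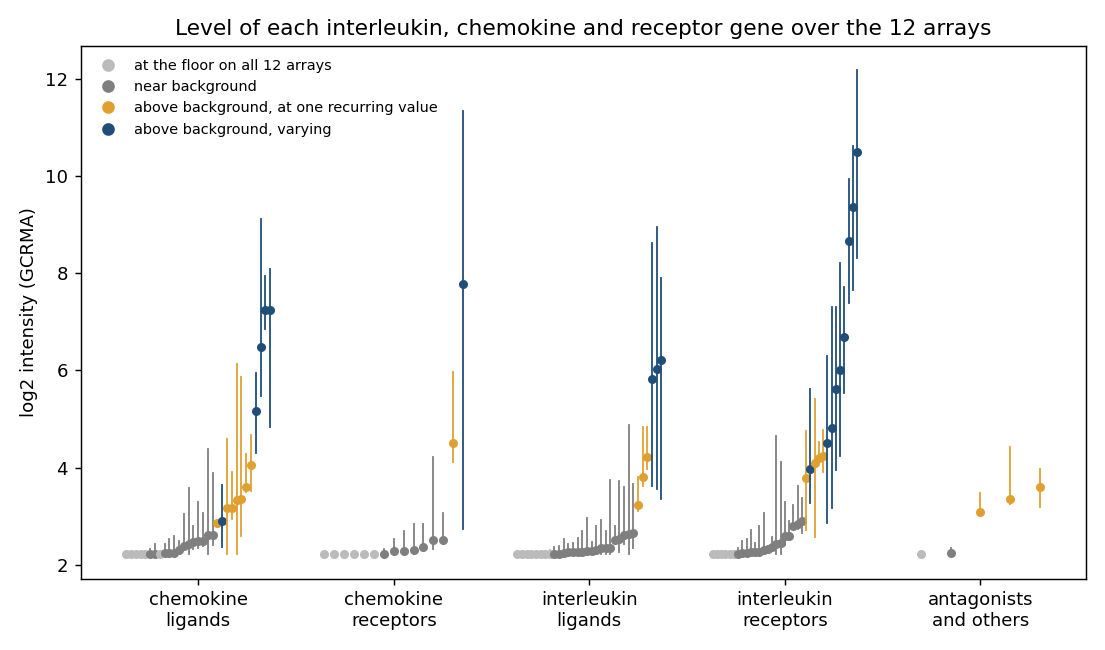
Level of each of the 118 genes, grouped by role. Each point is the mean log2 intensity of a gene over the 12 arrays, each line runs from its lowest to its highest array, and colours give the level class; within a role genes are ordered by mean. Most genes of every role lie close to the floor of 2.21, and the highest means, 10.5 for Il1r1 and 9.37 for Il17ra, belong to interleukin receptors.

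The highest level among all members belonged to Il1r1, the signalling receptor for IL-1, whose mean over the 12 arrays of 10.5 exceeded that of 93.0% of genes as ranked by probe set intensity, a scale that depends on the probes. Next came Il17ra, the shared chain of the IL-17 receptors, with a mean of 9.37. Il10rb, the chain shared by receptors for IL-10, IL-22 and lambda interferons, had 8.67, and Cxcr4, the receptor of the chemokine Cxcl12, had 7.78. The ranks set probe sets side by side and are no comparison of transcript numbers.

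The response to hCG was tested with limma as the mean of the 4 h minus 0 h differences of both genotypes, which rests on 6 arrays on each side. Il1r1, Il1rl2, Il17ra, Cxcr4, Il7 and Il23a rose and Il17rc fell, at a Benjamini-Hochberg adjusted p under 0.05 over all genes. That is 7 of 118 members (5.93%), beside 9.72% of all 18194 genes. The 6 that rose were 5.08% of members, against 3.1% of all genes, and the 1 that fell was 0.847%, against 6.62%. The median log2 change over all 118 members was 0.005, and over all genes it was -0.013. The share of members called was below that of all genes, but 82 members lay at or near background. A further fit held only genes whose mean lay above the median of all genes. There 5 of 15 members rose and 2 fell (46.7%, beside 27.5% of the genes tested). That mean was taken over all 12 arrays and so holds the 4 h values under test. The 0 h group means of Il7 were 3.64 and 4.35 and those of Il23a 4.19 and 4.49, so their rise helped them pass the filter. The 46.7% is therefore no test of members against other genes. For the same 7 members, and no others, the 6 arrays of 4 h did not overlap the 6 of 0 h, which held for 7.67% of all genes (2.48% upward and 5.18% downward).

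**Figure D2:**
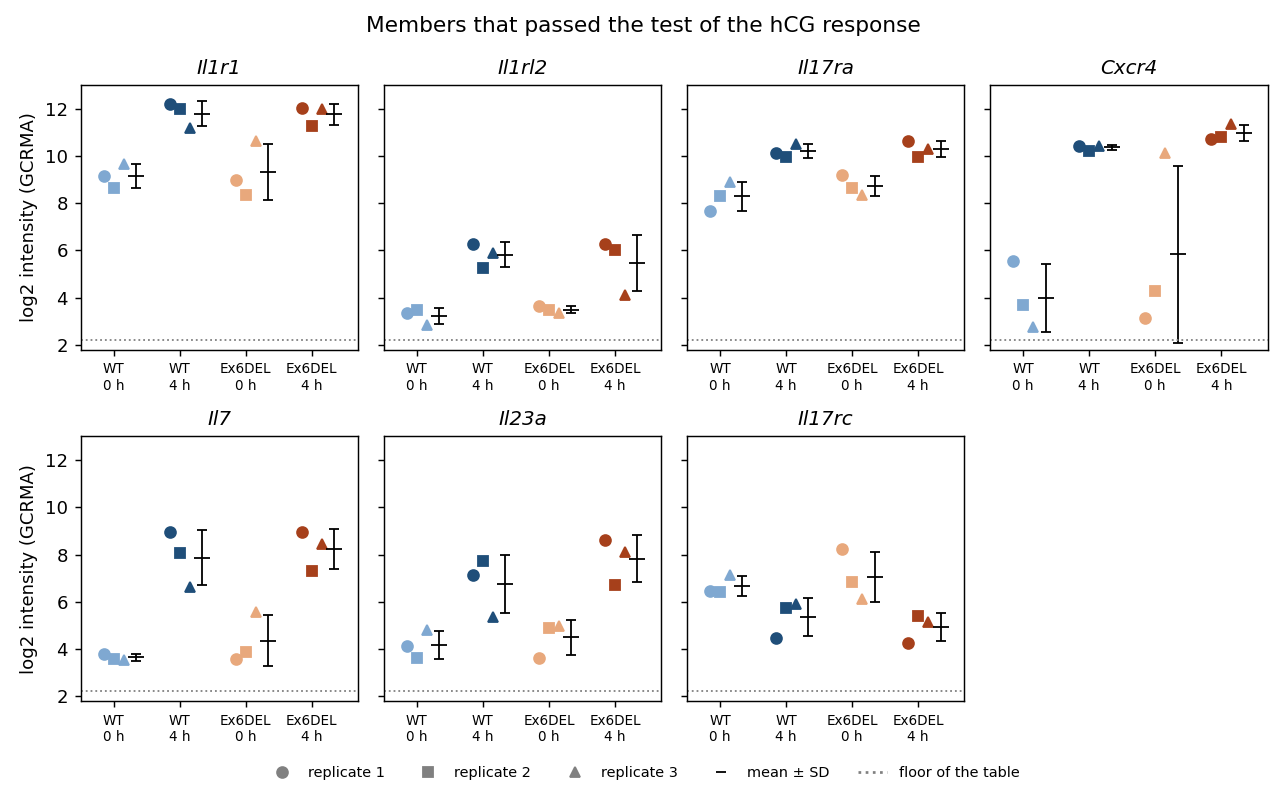
Log2 intensity on every array for the 7 genes that passed the test of the hCG response, by group. Symbols give the replicate number, bars the mean ± SD of 3 arrays and the dotted line the floor of the table. Ex6DEL 0 h replicate 3 (triangle) lies near the 4 h arrays for Cxcr4, at 10.11, and above the rest of its group for Il1r1 and Il7.

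Il1r1 had the highest level of the 7 called genes. It had 9.14, 8.64 and 9.64 in WT at 0 h and 12.18, 12.001 and 11.17 at 4 h. The Ex6DEL arrays read 8.96, 8.32 and 10.63 at 0 h and 12.03, 11.26 and 11.98 at 4 h. Every array of 4 h lay above every array of 0 h, and the highest of the latter was Ex6DEL 0 h replicate 3. The mean log2 change was 2.55 (SE 0.41, n = 6 arrays on each side, limma adjusted p = 0.00880), which is 5.85-fold. Without Ex6DEL 0 h replicate 3 the change was 2.88 (SE 0.29, adjusted p = 0.00189). The second Il1r1 probe set had a mean of 2.22 and was at background, so 1 probe set carries the result.

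Il1rl2, the receptor for the IL-36 cytokines, lies beside Il1r1 in the genome. It had 3.35, 3.48 and 2.86 in WT at 0 h and 6.29, 5.25 and 5.90 at 4 h. Ex6DEL arrays had 3.66, 3.48 and 3.35 at 0 h and 6.26, 6.03 and 4.10 at 4 h. Its 0 h arrays were all close to background, and Ex6DEL 4 h replicate 3 was the lowest of the arrays of 4 h. Il1rl2 rose by 2.27 on the log2 scale (SE 0.37, limma adjusted p = 0.00999). Its second probe set, with a mean of 3.52, differed by 0.12 and did not pass. The probe set that rose is of the kind (suffix _s_at) whose probes can match more than 1 transcript.

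Of the 5 measured genes of this receptor cluster, 2 passed the test. On chromosome 1 the order of protein-coding genes is Il1r2, Il1r1, Il1rl2, Il1rl1, Il18r1 and Il18rap, from RefSeq's GRCm38.p6 annotation, and Il1rl1 was not analysed here. Il1r2, a decoy receptor for IL-1, recurred at 4.13 with values from 3.90 to 4.77, and its log2 change of 0.37 did not pass (adjusted p = 0.102). Il18r1 was at the floor on all arrays, and Il18rap, with its partner a chain of the IL-18 receptor, had a highest value of 3.29. Il1rap, the accessory chain that Il1r1 and Il1rl2 both need for signalling, had values from 5.53 to 7.72 and a change of 0.39 that did not pass (SE 0.37, adjusted p = 0.596). The ligands of these receptors, Il1a, Il1b and the IL-36 genes Il1f6, Il1f8 and Il1f9, were at or near background or at a recurring value in every group.

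The windows of 250 bases before the annotated starts are shown for the risen receptor genes that have an entry in RefSeq's promoter table (GRCm38.p6), because Il1r1 and Il1rl2 are neighbours that both rose in these pools. Il1r1 has a start upstream and a start downstream. Capitals mark matches, on either strand, to the motifs searched: TGACGTCA (CRE), TGANTCA (AP-1), TTGCNNAA (C/EBP), GGGNN joined to TTTCC (NF-kB), TGTGGTT (RUNX) and GGGCGG (GC box).
Il1r1 upstream start, chr1:40224830-40225079, plus strand: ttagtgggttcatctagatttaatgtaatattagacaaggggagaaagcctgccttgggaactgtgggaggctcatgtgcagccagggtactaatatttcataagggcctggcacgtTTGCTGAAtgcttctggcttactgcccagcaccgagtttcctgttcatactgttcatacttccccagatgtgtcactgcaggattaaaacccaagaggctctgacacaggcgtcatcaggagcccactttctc
Il1r1 downstream start, chr1:40266336-40266585, plus strand: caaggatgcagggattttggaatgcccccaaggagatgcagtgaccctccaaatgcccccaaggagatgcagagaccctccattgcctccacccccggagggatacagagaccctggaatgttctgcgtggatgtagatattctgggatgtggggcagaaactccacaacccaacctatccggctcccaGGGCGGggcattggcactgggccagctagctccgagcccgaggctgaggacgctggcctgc
Il1rl2, chr1:40324339-40324588, plus strand: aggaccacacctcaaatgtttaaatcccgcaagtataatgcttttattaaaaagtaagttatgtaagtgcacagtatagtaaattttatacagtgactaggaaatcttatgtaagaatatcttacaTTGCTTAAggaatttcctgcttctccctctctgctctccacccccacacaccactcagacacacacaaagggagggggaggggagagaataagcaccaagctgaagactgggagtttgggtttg
Cxcr4, chr1:128592300-128592549, minus strand: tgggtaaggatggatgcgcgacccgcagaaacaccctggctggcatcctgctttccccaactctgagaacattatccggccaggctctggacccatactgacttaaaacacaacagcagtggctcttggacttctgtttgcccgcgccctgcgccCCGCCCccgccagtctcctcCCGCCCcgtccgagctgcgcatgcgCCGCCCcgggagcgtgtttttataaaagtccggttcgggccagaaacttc

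The windows of Il1rl2 and of the upstream start of Il1r1 each held a C/EBP match, 124 and 133 bases before the start, and 9.56% of the 32851 windows of that length in the table hold one. The downstream Il1r1 window held 1 GC box and the Cxcr4 window held 3, where 32.7% of all windows hold at least 1. None of these 4 windows held a match to the letters searched for CRE (1.55% of all windows), AP-1 (6.75%), NF-kB (1.41%) or RUNX (4.40%). The window of Il17rc, the called receptor gene that fell, is not shown and held an NF-kB match 236 bases before the start. No motif overlapped another. Il7, Il17ra and Il23a have no entry in the table, and 89 of the 118 members have one.

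Chains of the IL-17 receptor moved in opposite directions. Il17ra had 7.66, 8.31 and 8.89 in WT at 0 h and 10.13, 9.94 and 10.51 at 4 h. The values in Ex6DEL were 9.18, 8.65 and 8.33 at 0 h and 10.62, 9.95 and 10.30 at 4 h. No array of 4 h came below 9.94 and no array of 0 h above 9.18. Il17ra rose by 1.74 (SE 0.24, limma adjusted p = 0.00594), or 3.34-fold, and its second probe set rose by 2.78 (adjusted p = 0.00813 with every probe set tested by itself).

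Il17rc, the partner of Il17ra in the receptor for IL-17A and IL-17F, had 6.45, 6.40 and 7.14 in WT at 0 h and 4.45, 5.75 and 5.90 at 4 h. Ex6DEL arrays had 8.21, 6.83 and 6.10 at 0 h and 4.24, 5.39 and 5.14 at 4 h. Its arrays of 4 h ended at 5.90 and those of 0 h began at 6.10, so the gap was narrow. Il17rc fell by 1.71 on the log2 scale (SE 0.42, limma adjusted p = 0.0399). This call was kept in 1 of the 12 fits that left out 1 array, with an adjusted p of up to 0.0934, and leaving out any array except Ex6DEL 0 h replicate 3 ended it. With every probe set tested by itself its adjusted p was 0.0527. The ligand Il17a was at the floor throughout.

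Cxcr4 showed the widest range of all members. It had 5.53, 3.68 and 2.74 in WT at 0 h and 10.41, 10.22 and 10.44 at 4 h. The values in Ex6DEL were 3.13, 4.27 and 10.11 at 0 h and 10.72, 10.81 and 11.34 at 4 h. It was Ex6DEL 0 h replicate 3 that had 10.11, and in this gene it stood level with the arrays taken after hCG. Cxcr4 rose by 5.74 (SE 1.12, limma adjusted p = 0.0178), or 53.6-fold. Without Ex6DEL 0 h replicate 3 the change was 6.81 (SE 0.49, adjusted p = 6.26e-04). In Ex6DEL alone it was 5.12 with that array (SE 1.58, adjusted p = 0.126) and 7.25 without it (SE 0.73, adjusted p = 0.00469).

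For the known ligand of this receptor no change passed the test. Cxcl12, made by stromal cells, had 7.79, 5.79 and 5.58 in WT at 0 h and 6.22, 6.12 and 6.19 at 4 h. Ex6DEL arrays had 9.12, 7.17 and 5.70 at 0 h and 6.03, 6.65 and 5.47 at 4 h. The spread lay in the arrays of 0 h, and the log2 change of -0.75 did not pass (SE 0.61, adjusted p = 0.553). The 2 arrays with the highest values were replicate 1 of Ex6DEL 0 h and of WT 0 h. In Ex6DEL 0 h replicate 1 the mean of 8 theca and stroma markers was 12.46, while the remaining 0 h arrays spanned 7.94 to 9.31 and the 4 h arrays 7.44 to 8.73. In the same array Cxcl14 (5.87), Il13ra2 (7.30), Il4ra (7.31) and Il17rc (8.21) had their highest values, the first 2 of them chosen after their values were seen. The part of these other cells in the values was not tested.

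Among interleukin ligands, Il7, a growth factor of lymphocytes, changed most. It had 3.80, 3.59 and 3.55 in WT at 0 h and 8.94, 8.07 and 6.61 at 4 h. The Ex6DEL arrays read 3.60, 3.87 and 5.58 at 0 h and 8.95, 7.32 and 8.43 at 4 h. Replicate 3 of Ex6DEL 0 h was again the highest array of 0 h, and the groups did not overlap. Il7 rose by 4.06 (SE 0.50, limma adjusted p = 0.00449), or 16.65-fold from a level near background. Without Ex6DEL 0 h replicate 3 it rose by 4.36 (SE 0.46, adjusted p = 0.00221). It was the member called in each genotype by itself, its log2 change being 4.23 in WT (adjusted p = 0.0397) and 3.89 in Ex6DEL, where the adjusted p was 0.0383. These calls within a genotype were less stable than that over both: of the 12 fits without 1 array, 3 kept it in WT and 4 in Ex6DEL, where all 12 kept the mean response. With the replicate number as a block the adjusted p in Ex6DEL was 0.0669, which ended the call there. Its second probe set had a mean of 2.59 and a change of 0.75 that did not pass. Il7r, the specific chain of its receptor, was at the floor on 11 of 12 arrays.

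Il23a, the subunit specific to IL-23, had 4.14, 3.62 and 4.80 in WT at 0 h and 7.15, 7.71 and 5.37 at 4 h. The values in Ex6DEL were 3.63, 4.88 and 4.97 at 0 h and 8.63, 6.72 and 8.12 at 4 h. WT 4 h replicate 3 came closest to the arrays of 0 h, and the times did not overlap. Il23a rose by 2.94 (SE 0.51, limma adjusted p = 0.0120), or 7.68-fold. Il12b, the subunit that pairs with it to make IL-23, was at the floor on 10 of 12 arrays with a highest value of 2.97, and was chosen after its values were seen.

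Il18, an IL-1 family ligand, had 7.89, 6.88 and 6.80 in WT at 0 h and 6.45, 4.97 and 5.63 at 4 h. Ex6DEL arrays had 7.40, 6.60 and 6.29 at 0 h and 6.16, 6.18 and 3.35 at 4 h. Within each genotype the arrays of 4 h lay below those of 0 h, but the WT value of 6.45 at 4 h exceeded the lowest Ex6DEL value at 0 h. Its log2 change of -1.52 did not pass (SE 0.55, adjusted p = 0.129).

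Chemokine ligands gave no call. Cxcl2, a neutrophil attractant, had 2.26 on all 3 arrays of WT 0 h and 6.14, 2.26 and 5.24 at 4 h. The Ex6DEL arrays read 2.26, 2.21 and 2.21 at 0 h and 4.80, 4.74 and 3.24 at 4 h. It was above background on 5 of the 6 arrays of 4 h and on none of 0 h. Its change of 2.16 came short of the threshold (SE 0.62, adjusted p = 0.0633). Leaving out WT 4 h replicate 2, the array at 2.26, gave a change of 2.74 and an adjusted p of 0.00819. That was the 1 call among the 12 fits without 1 array. Across these fits the change ran from 1.76 to 2.74, with an adjusted p of up to 0.133.

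Cxcl1, which shares a receptor with Cxcl2, was present before hCG. It had 7.33, 7.59 and 7.62 in WT at 0 h and 7.70, 6.75 and 7.79 at 4 h. The values in Ex6DEL were 4.83, 6.38 and 7.37 at 0 h and 8.09, 7.75 and 7.76 at 4 h. The Ex6DEL arrays of 0 h were spread over more than 2 log2 units, with replicate 1 lowest. The mean change over both genotypes was 0.79 (adjusted p = 0.285), and that in Ex6DEL was 1.68 (adjusted p = 0.152). Without Ex6DEL 0 h replicate 3 the change in Ex6DEL was 2.26 (adjusted p = 0.0338), the 1 call among the 12 fits without 1 array. Over those fits the change ran from 0.997 to 2.26, with an adjusted p of up to 0.315. The genotype difference in the Cxcl1 response was 1.77 (interval -0.03 to 3.57, adjusted p = 0.871). Without Ex6DEL 0 h replicate 3 it was 2.36 (adjusted p = 0.561). Leaving out replicate 1, the lowest array, was not examined for this difference. Cxcl16, a membrane-bound ligand, stayed between 6.85 and 7.94 on all arrays.

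Il6 stood at 4.87 in WT 4 h replicate 1 and 4.63 in Ex6DEL 4 h replicate 1, and at the floor on the other 10 arrays. It is a ligand that cumulus and granulosa cells are known to make around ovulation, and its change of 0.85 did not pass (adjusted p = 0.467). Those 2 arrays had the highest means of the 5 measured neutrophil markers, 3.74 and 3.08 against 2.58 to 2.93 on all other arrays. S100a8 had 5.95 and 4.86 in them and S100a9 5.18 and 2.89, while Elane, Mpo and Ngp were no higher than 3.19. The pan-leukocyte gene Ptprc had 5.49 and 6.42 there, where WT 4 h replicate 3 had 5.17 and the rest 2.75 to 4.13. These 2 arrays also stood apart in other genes, and their deviations from group means had a correlation of 0.727. They had the highest values of the NF-kB regulator Nfkbiz (8.79 and 9.02) and the lowest of the granulosa marker Foxl2 (8.39 and 8.63). Both genes were chosen after their values were seen. The part of leukocytes, or of these other differences, in the Il6 values was not tested. Il6ra, its receptor, recurred at 4.04 and ranged from 2.58 to 5.41. Other receptor chains showed no change that passed: Il10rb ranged from 7.38 to 9.93, Il4ra from 3.95 to 7.31 and Il13ra1 from 3.27 to 5.61. Ccr2, the receptor of Ccl2, recurred at 4.37 on 9 arrays.

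**Figure D3:**
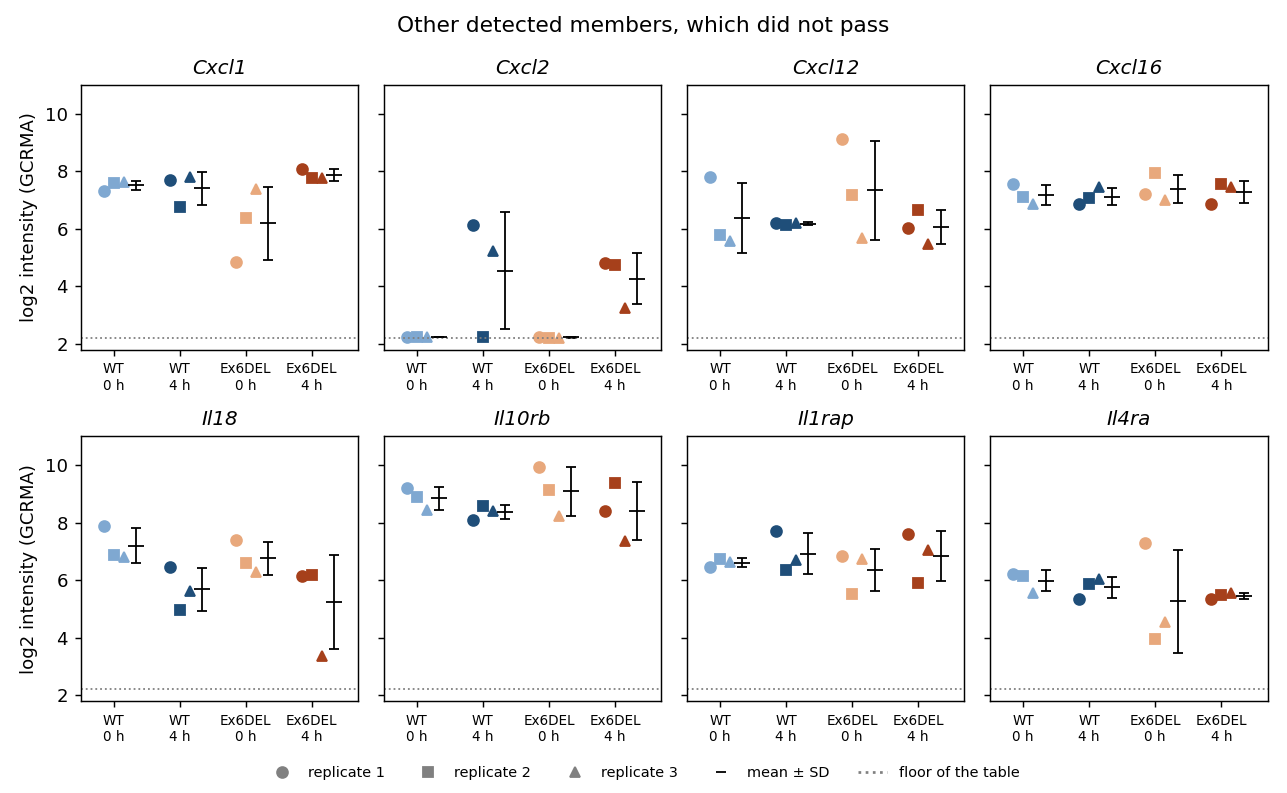
Log2 intensity on every array for 8 further detected genes, none of which passed the test of the hCG response. Symbols give the replicate number, bars the mean ± SD of 3 arrays and the dotted line the floor of the table. Cxcl2 leaves the floor on 5 of 6 arrays of 4 h, and Cxcl12 and Il4ra are highest in replicate 1 of Ex6DEL 0 h.

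No leukocyte marker passed the test of the hCG response, and their levels differed widely. The mean of 6 pan-leukocyte markers ran from 4.00 to 5.19 at 0 h and from 4.96 to 5.90 at 4 h. Ptprc was the pan-leukocyte marker whose times did not overlap, with 2.75 to 3.88 at 0 h and 3.96 to 6.42 at 4 h (log2 change 1.41, adjusted p = 0.110), and Laptm5 ran from 5.99 to 11.78. That of 8 macrophage and monocyte markers ran from 4.55 to 5.39 and from 4.59 to 5.16, with Csf1r at 7.89 to 9.73, Adgre1 at 6.31 to 7.88 and Lyz2 at 5.97 to 8.58 over all arrays, and Cd68, Fcgr1 and Itgam no higher than 4.22. Markers of T and natural killer cells had means of 2.26 to 2.49 at 0 h and 2.26 to 2.41 at 4 h, with 3 of 7 at the floor on all arrays, and B cell markers 2.21 to 2.35 and 2.21 to 2.54, with 1 of 3 there. The 6 endothelial markers had means of 3.06 to 4.22 and 3.74 to 4.22. Kdr ran from 5.91 to 9.39 and Cdh5 from 3.06 to 5.48, while Pecam1 was at the floor on all arrays and Emcn, Vwf and Tek stayed under 4. The part of these cells in the members' values was not tested.

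Each genotype was also tested by itself, with 3 arrays on each side. In WT, Il7 and Il17ra passed (2 of 118 members, 1.69%, both upward, beside 0.929% of all genes, of which 0.61% rose and 0.319% fell), with Il17ra at 1.91 (SE 0.34, limma adjusted p = 0.0478). In Ex6DEL, Il7 alone passed (0.847%, upward, beside 2.17% of all genes, of which 0.566% rose and 1.6% fell). With all 12 arrays in the fit, the other risen genes did not pass within a genotype. The log2 difference of Il1r1 was 2.64 in WT and 2.45 in Ex6DEL (adjusted p = 0.0716 and 0.0649), and that of Il1rl2 was 2.58 and 1.97 (0.0649 and 0.0929). For Il23a it was 2.56 and 3.33 (0.154 and 0.0547), and for Cxcr4 6.37 and 5.12 (0.106 and 0.126). With the replicate number as a block no member passed in either genotype, Il17ra having an adjusted p of 0.0872 in WT. Without Ex6DEL 0 h replicate 3, 4 members passed in WT (3.39%, beside 1.49% of all genes), namely Il7, Il17ra, Il1r1 and Cxcr4. In Ex6DEL 6 passed (5.08%, beside 6.9% of all genes), namely Il7, Il1r1, Il23a, Cxcr4, Cxcl1 and Il17rc. All groups share 1 estimate of the spread, so this array also entered the WT tests. The WT change of Cxcr4 had an SE of 1.58 with it and 0.66 without it (limma adjusted p = 0.00613). Il1rl2 still passed in neither genotype. The arrays of the 2 times did not overlap for 10 members in WT (8.47%, beside 18.9% of all genes), 7 of them higher at 4 h (7.52% of all genes) and 3 lower (11.4%). In Ex6DEL they did not overlap for 14 members (11.9%, beside 19.7%), 12 of them higher (5.13%) and 2 lower (14.5%).

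**Figure D4:**
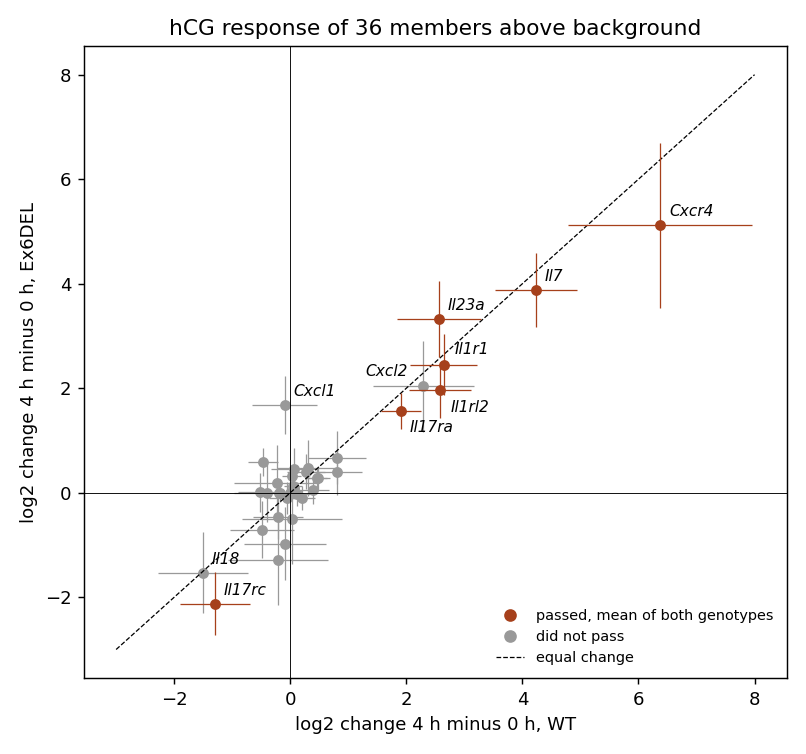
Log2 change 4 h minus 0 h in WT (x axis) and Ex6DEL (y axis) for the 36 members above background, with SE bars. Red points passed the test of the mean of both genotypes, and the dashed line marks equal change. The 7 red points were chosen by the mean of both changes, which favours genes that changed alike, so their place near the line is no test of equal responses. They run from Il17rc, at -1.30 in WT and -2.12 in Ex6DEL, to Cxcr4, at 6.37 and 5.12.

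No difference between genotypes passed the test for any member. Limma called 0 of 118 members before hCG (beside 0.033% of all genes), 0 at 4 h (beside 0%) and 0 for the difference between the responses (beside 0.011%). At an unadjusted p under 0.05 there were 2, 4 and 1 members, which were 1.69%, 3.39% and 0.847% of them, beside 5.36%, 1.62% and 3.20% of all genes. Intervals were wide. At 4 h the Ex6DEL minus WT difference was -0.03 for Il1r1 (95% interval -1.34 to 1.28) and 0.10 for Il17ra (-0.69 to 0.88). It was 0.36 for Il7 (-1.25 to 1.97), 1.08 for Il23a (-0.57 to 2.72), -0.35 for Il1rl2 (-1.56 to 0.86) and 0.60 for Cxcr4 (SE 1.58). The SE for Cxcr4 was 0.66 without Ex6DEL 0 h replicate 3. The 3 Cxcr4 arrays of Ex6DEL 4 h, from 10.72 upward, lay above those of WT 4 h, which ended at 10.44. Arrays at 4 h were separate for 4 members (3.39%, beside 2.98% of all genes), all higher in Ex6DEL (0.962% of all genes, against 2.02% lower). They were Cxcr4, Ccr9, Il11 and Il17rb, the second and the last chosen after their values were seen. Ccr9, Il11 and Il17rb lay near background. At 4 h Ccr9 had 2.22 on all WT arrays and 2.32 to 2.84 in Ex6DEL, and Il11 had 2.45 to 2.47 and 2.65 to 3.61. Il17rb had 2.54 on all WT arrays and 2.54 to 2.90 in Ex6DEL, so its arrays were separate only beyond the second decimal. At 0 h the arrays were separate for 2 members (1.69%, beside 6.41% of all genes), Ccl1 and Ccl9, both lower in Ex6DEL (2.45% of all genes, against 3.96% higher) and both chosen after their values were seen. Ccl1 lay near background, its lowest WT value being 2.46 and its highest Ex6DEL value 2.44. At 0 h the difference was 1.85 for Cxcr4 (-1.75 to 5.45) with Ex6DEL 0 h replicate 3 in the group and -0.28 without it, and for Il1r1 it was 0.16 with that array and -0.50 without it. For Cxcl1 it was -1.32 (-2.59 to -0.05, adjusted p = 0.874), and without that array -1.91 (adjusted p = 0.285). Leaving out replicate 1, the lowest Cxcl1 array of Ex6DEL 0 h, was not examined there. The difference between the hCG responses was -0.34 for Il7 (-2.62 to 1.94) and -0.19 for Il1r1 (-2.04 to 1.66).

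**Figure D5:**
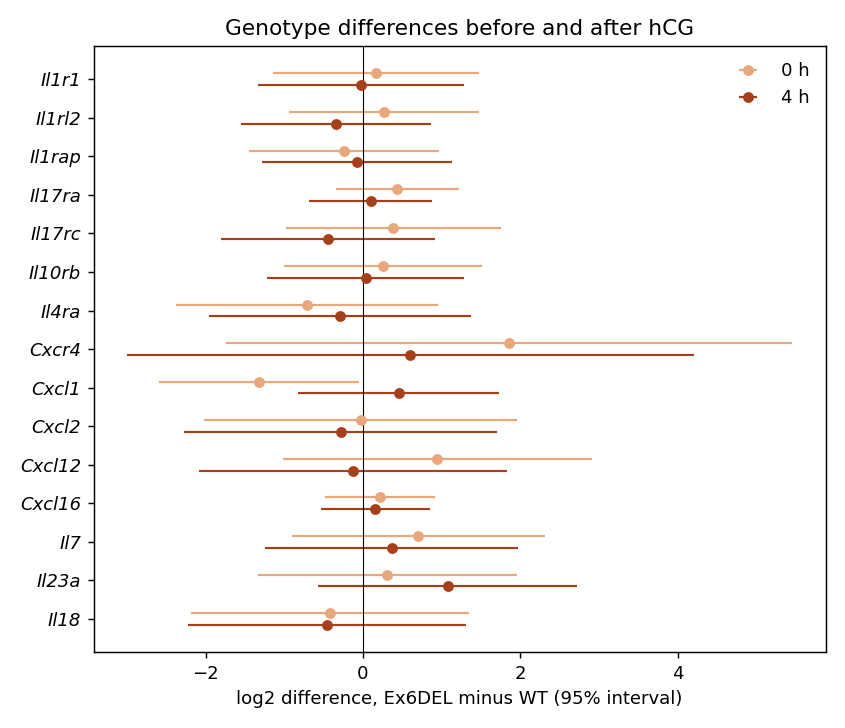
Log2 difference Ex6DEL minus WT at 0 h and 4 h for 15 detected genes, with 95% intervals of the 4-group fit. Of the 30 intervals, that of Cxcl1 at 0 h, ending at -0.05, lies to the side of 0, and none of the differences passed after adjustment.

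Genes that act with these ligands and receptors were followed in lists chosen from knowledge of the pathways. The lists were not tested as sets, and over both genotypes 3.1% of all genes rose and 6.62% fell. Csf2rb, the chain shared by receptors for IL-3, IL-5 and GM-CSF, had 4.50, 3.55 and 2.99 in WT at 0 h and 6.80, 6.45 and 6.48 at 4 h. The Ex6DEL arrays read 3.15, 3.87 and 4.67 at 0 h and 7.61, 6.75 and 7.27 at 4 h. It rose by 3.10 over both genotypes (SE 0.33, limma adjusted p = 0.00269). It also passed within each genotype, with an adjusted p of 0.0350 in WT and 0.0269 in Ex6DEL. The replicate block and the other alternatives were not examined for this gene. Its partner chains Il3ra and Il5ra lay at a recurring value of 4.13 and at the floor on 11 arrays. In its list of 14 genes of tumour necrosis factor (TNF) and colony stimulating factors, 2 rose and 1 fell. The other that rose was Tnfaip6 (7.69, SE 1.41, adjusted p = 0.0142), and the TNF receptor gene Tnfrsf1b fell by 1.60.

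Among 12 measured NF-kB subunits and inhibitors 1 rose, the nuclear regulator Nfkbiz, by 2.56 (SE 0.48, adjusted p = 0.0154), and 1 fell, the kinase scaffold Ikbkg, by 1.09. Among 15 genes of JAK, STAT and SOCS proteins Socs3, a feedback inhibitor of cytokine receptors, rose by 1.19 (SE 0.24, adjusted p = 0.0194) and the kinase gene Jak1 fell by 1.10 (SE 0.21, adjusted p = 0.0154). Of 8 partners of the receptor chain gp130, Clcf1, a ligand of that receptor family, rose by 2.07 (SE 0.46, adjusted p = 0.0285). Of 11 chemokine genes with other symbols, the membrane-bound ligand Cx3cl1 rose by 1.23 (SE 0.27, adjusted p = 0.0267). None of 19 genes of IL-1 and Toll receptor signalling passed. These counts stand beside 3.1% of all genes that rose and 6.62% that fell, and are no result about the pathways. The median log2 change of these 6 lists lay between -0.06 and 0.05, beside -0.01 for all genes. Of the 8 granulosa markers, 3 fell in the same arrays (beside 6.62% of all genes), namely Fshr (-3.39), Hsd17b1 (-1.80) and Amhr2 (-1.52), and none rose. Foxl2 had -2.69 (adjusted p = 0.0513), Nr5a2 -0.18, Inha -0.06, Inhba 0.14 and Amh was at the floor.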

How the data were processed

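RNA of 12 Affymetrix mouse arrays was analysed. Each deposited value is the log2 intensity of a probe set, made by the authors with GCRMA (version not given), which corrects background, normalizes between arrays and summarises probes, per the submitters' processing notes. Of 45101 probe sets, 34958 had exactly 1 symbol in the array annotation, and the probe set with the highest mean represented a gene, leaving 18194 genes. The 932 with several symbols and the 9211 not listed stayed out.

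A linear model of the 4 groups of 3 arrays was fitted to all genes in R 4.3.3, using lmFit and eBayes of limma 3.58.1 (8 residual degrees of freedom) and tested on simulated data. Tests were two-sided, and a call is a Benjamini-Hochberg p, over all genes, under 0.05. Members, lists, tests and arrays set apart were chosen with earlier results of these data known. Named members are those called, the 10 highest by mean, the 10 above background with the largest change over both genotypes, and a list from knowledge of ovulation. The partner genes Il1f6, Il1f8, Il1f9, Il3ra, Il5ra, Il7r, Il18r1 and Il18rap were added with their values in view, as were those for which the text says so. Deviations of same-numbered arrays at 0 h and 4 h had correlations of 0.143, 0.405 and 0.242 in Ex6DEL and 0.086, 0.236 and 0.015 in WT. Over all groups the correlations ran from -0.369 to 0.727, the highest being between replicate 1 of WT 4 h and of Ex6DEL 4 h. Whether the numbers mark pairs was not settled, and the main fit used no pairing. The fit with the replicate block is given as counts of members called, and by value for Il7 in Ex6DEL and Il17ra in WT. The number of arrays limits the precision.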

Additional observations from a re-analysis of the deposited data

How the results depend on the processing

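For the mean hCG response, Il1r1, Il1rl2, Il17ra, Cxcr4, Il7 and Il23a passed in each of the 12 fits without 1 array. Those fits called 6 to 8 members (5.08% to 6.78%, beside 4.92% to 12.2% of all genes). At an adjusted p under 0.01, 4 members passed (3.39%, beside 2.23% of all genes). With replicate 1 of WT 0 h and replicate 3 of Ex6DEL 0 h both left out, 8 passed (6.78%, beside 12.6% of all genes). The Il17rc call was lost in 13 of 22 alternatives. In WT the 2 calls became 5 of 15 members tested among genes above the median level (beside 5.77% of all genes tested there). That filter on level used the arrays under test. With array weights they were 8 of 118 (6.78%, beside 12.6% of all genes). They were 1 with low values raised to the table median (0.847%, beside 0.665%) and 1 with the mean of all probe sets (0.847%, beside 1.12%). They were 0 with only the groups compared or at an adjusted p under 0.01. Without 1 array they ranged from 0 to 4, with 4 without Ex6DEL 0 h replicate 3, 0 without WT 0 h replicates 1 or 2, Ex6DEL 0 h replicate 2 or Ex6DEL 4 h replicates 1 or 2, and 1 without WT 0 h replicate 3, WT 4 h replicates 1 or 3 or Ex6DEL 4 h replicate 3. In Ex6DEL the 1 call became 3 after quantile normalization (2.54%, beside 2.67% of all genes) and 3 after a median shift (2.54%, beside 4.33%). Among genes above the median level it became 6 of 15 (beside 14.7% of all genes tested there). With array weights it became 2 (1.69%, beside 2.27%), and without both arrays 6 (5.08%, beside 7.11%). It became 0 with only the groups compared or at an adjusted p under 0.01. Without 1 array it ranged from 0 to 6, with 6 without Ex6DEL 0 h replicate 3, 2 without WT 0 h replicate 1 or WT 4 h replicate 3, and 0 without WT 0 h replicates 2 or 3, WT 4 h replicate 2, Ex6DEL 0 h replicates 1 or 2 or Ex6DEL 4 h replicates 1 or 2. With the replicate number as a block 6 members passed in the mean response (5.08%, beside 9.44% of all genes), all of them up, and 0 in WT and 0 in Ex6DEL. A fit with only the groups compared gives no value for the mean response or the difference in response. Genotype differences stayed at 0 calls before hCG. At 4 h and for the difference in response, fits without 1 array gave 0 to 1, the call being Il33 without WT 4 h replicate 2, where the other WT arrays of 4 h had 2.91 and 2.88. The cause of these shifts was not tested, apart from the fewer genes or arrays in some fits. No sign turned among the mean hCG responses followed here, those of the 7 called members, Cxcl2, Il18, Cxcl1 and Cxcl12. The same held within each genotype for the 7 called members, and in Ex6DEL for Cxcl1. Responses of other members and of the partner genes were not followed across the alternatives. Of the genotype differences, those of Cxcr4 and Il1r1 at 0 h turned from 1.85 and 0.16 to -0.28 and -0.50 without Ex6DEL 0 h replicate 3, and the differences in response of Il7 and Il1r1 turned from -0.34 and -0.19 to 0.27 and 0.47, none of them called, and the other alternatives were not examined for single-gene genotype differences. A median shift moved the median genotype difference in response over all genes from -0.05 to -0.11. Members at the floor numbered 27 or 28 and those above background 32 to 36 under other scalings and probe set rules. Of all member values, 50.7% lay at the floor, where no change can be seen.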

Other observations

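The 7 probe sets that match the same symbols but also carry other genes stayed out of the tests. The probe set of Ccl21a and its copies, which code for a ligand of lymphatic vessels and lymph nodes, lay between 4.95 and 5.43 on 10 arrays and reached 6.996 in WT 0 h replicate 1 and 9.37 in Ex6DEL 0 h replicate 1, the arrays with the highest Cxcl12 values. The probe set shared by Ccl27a and Ccl27b had 6.62 to 8.06, with no separation of the times. A second probe set of those genes had 3.88 to 4.91, the probe set of Il4i1 and its copy 2.26 to 3.77, and that shared by Il2 and another gene 7.79 to 9.26. The probe sets of Il22 and of Ccl19 had highest values of 2.61 and 2.67.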
